A study of Mus musculus with 2 samples.

Results

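Vagal sensory neurons carry receptors for peptides that the gut and pancreas release around a meal and for hormones that report energy stores. The genes of 10 such receptors, chosen by symbol, were followed among the 32286 features of the deposited table, of which 26032 had a UMI (unique molecular identifier, 1 captured RNA molecule): *Cckar*, *Npy2r*, *Glp1r*, *Gipr*, *Ghsr*, *Gpr65*, *Oxtr*, *Mc4r*, *Lepr* and *Insr*. Single nuclei came from vagus nerve ganglia of C57BL/6J mice of the genotype Rosa26-floxed-STOP-Cas9-eGFP, fed standard chow and bought at 8 to 9 weeks of age. All mice had received AAVrg-Cre, a retrogradely transported virus that carries Cre recombinase, into the liver 4 weeks earlier, so that no group was free of the virus. The female library pooled 14 ganglia of 7 mice and the male library 16 ganglia of 8 mice. Since each sex gave 1 library, sex and library cannot be told apart, nuclei are not replicates, and no test or p-value is given.

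In the classical picture, cholecystokinin from the duodenum acts on *Cckar*, peptide YY and its cleaved form act on *Npy2r*, and glucagon-like peptide 1 acts on *Glp1r*, all on vagal endings that slow gastric emptying and end a meal. *Gpr65* encodes a receptor sensitive to protons and marks vagal neurons that innervate the intestinal mucosa. *Gipr* and *Ghsr* encode the receptors of the incretin GIP and of ghrelin, *Oxtr* that of oxytocin, and *Mc4r* a melanocortin receptor, while *Lepr* and *Insr* encode the leptin receptor, which signals through JAK2 and STAT3, and the insulin receptor, a tyrosine kinase. The vagal ganglia join the nodose ganglion, whose neurons derive from placodes, express the ATP-gated channel gene *P2rx2* and serve the viscera, with the jugular ganglion, whose neurons derive from the neural crest, express *Prdm12* and resemble other somatic sensory neurons.

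The female library held 17435300 UMIs over 3791 nuclei and the male library 27529730 over 4923, with medians of 2381 and 2658 UMIs per nucleus. *Xist* gave 13424 UMIs among female and 7 among male nuclei, and *Ddx3y* 12 and 1789, so that both matched the sex given to them. Most values below come from the 1972 deep nuclei, those with at least 5000 UMIs, of which 1366 were neuron-like, 362 female and 1004 male, with a median of 13309.5 UMIs. Clustering these neuron-like nuclei without the 10 receptor genes gave 12 clusters. Clusters 1, 4, 6, 8 and 11 were nodose-like (629 nuclei) and clusters 3, 5, 7, 10 and 12 jugular-like (487 nuclei). *P2rx2* stood at 1.004 UMIs per 10000 in the former and 0.0805 in the latter, *Prdm12* at 0.0892 and 1.29. Cluster 9 was sympathetic neuron-like (90 nuclei, 5 of them female), with the noradrenaline transporter gene *Slc6a2* at 15.5. Cluster 2 (160 nuclei) was given no kind, because satellite glia genes led it (*Fabp7* 4.97 against 0.812 in nodose-like nuclei), and it is called mixed. Nodose markers were also higher there than in the mean of the other clusters (mean log2 ratio 0.55), and jugular markers lower (-0.55).

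A level is the UMIs of a gene over all UMIs of the nuclei, per 10000. Brackets give 95% intervals, exact Poisson for levels, Clopper-Pearson for shares of nuclei and exact conditional for ratios, and all of them cover counting error only, not the spread between mice. In pooled nuclei, more nuclei with a transcript and more transcript per nucleus both raise a level, so shares of nuclei and UMIs per nucleus are given beside it.

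Among the receptors, *Cckar*, *Npy2r*, *Glp1r* and *Gpr65* carry the results on the nodose-like neurons, and the RefSeq table held start sites for 6 of the 10 genes. The stretch from 250 bases before to 50 bases after the start is printed for the 3 of these 4 genes it held, 5′ to 3′ on the strand of the gene, on GRCm38.p6 (mm10). *Npy2r* lies at chr3:82548036-82548335 on the minus strand, *Glp1r* at chr17:30901617-30901916 and *Gpr65* at chr12:98268385-98268684, both on the plus strand.
Npy2r: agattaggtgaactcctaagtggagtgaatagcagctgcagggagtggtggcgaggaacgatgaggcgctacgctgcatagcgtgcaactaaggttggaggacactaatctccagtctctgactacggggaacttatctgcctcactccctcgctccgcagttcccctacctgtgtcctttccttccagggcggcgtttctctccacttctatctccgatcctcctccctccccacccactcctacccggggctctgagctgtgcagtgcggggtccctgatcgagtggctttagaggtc
Glp1r: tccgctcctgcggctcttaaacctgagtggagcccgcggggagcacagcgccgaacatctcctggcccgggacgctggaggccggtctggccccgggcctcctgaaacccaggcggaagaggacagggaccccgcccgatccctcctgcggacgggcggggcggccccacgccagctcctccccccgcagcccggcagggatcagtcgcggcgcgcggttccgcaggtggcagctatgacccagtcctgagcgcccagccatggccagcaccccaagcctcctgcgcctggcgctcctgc
Gpr65: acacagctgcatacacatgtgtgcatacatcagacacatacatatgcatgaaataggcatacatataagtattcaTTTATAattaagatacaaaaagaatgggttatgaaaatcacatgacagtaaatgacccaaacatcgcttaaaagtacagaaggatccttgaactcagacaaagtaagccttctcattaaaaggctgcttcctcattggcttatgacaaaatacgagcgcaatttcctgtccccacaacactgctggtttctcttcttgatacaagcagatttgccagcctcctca

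The 3 starts differed in composition. The *Glp1r* stretch was 73.7% G or C with 29 CpG, that of *Npy2r* 57.7% with 14, and that of *Gpr65* 38.3% with 3. Motifs were searched on both strands as exact letters. TGACGTCA, the cAMP response element, was found in none of the stretches held for the receptors, against 1.79% of 32851 starts in the table. TATAAA, the TATA box, occurred in 13.6% of starts and, among the receptors held, in *Gpr65* alone, where the capitals mark it on the opposite strand from base 76. A match of letters describes the stretch and not a bound site.

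*Cckar*, the cholecystokinin A receptor, had the highest level of the peptide receptors in deep neuron-like nuclei. It lies on chromosome 5 at 53697776-53707705 (mm10, minus strand) and gave 842 UMIs there. Its level was 0.302 [0.264 to 0.345] in the female and 0.376 [0.347 to 0.407] in the male library, and 19.3% of 362 female and 26.4% of 1004 male nuclei held a UMI. The 2 libraries thus gave close levels, the male one a little higher. *Npy2r*, the Y2 receptor on chromosome 3 at 82538383-82548084 (minus strand), gave 505 UMIs, 0.221 [0.188 to 0.258] in the female and 0.208 [0.187 to 0.232] in the male library, in 20.4% and 17.3% of nuclei. *Glp1r*, the receptor of glucagon-like peptide 1 on chromosome 17 at 30901817-30940791 (plus strand), gave 216 UMIs, 0.0971 [0.0757 to 0.123] and 0.0880 [0.0743 to 0.103], in 8.29% and 8.47% of nuclei. The intervals of both libraries overlapped for *Npy2r* and *Glp1r*, and just missed each other for *Cckar*. *Gpr65*, on chromosome 12 at 98268635-98276644 (plus strand), gave 211 UMIs, 0.0541 [0.0385 to 0.0740] in the female and 0.104 [0.0887 to 0.120] in the male library.

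Levels of different genes were also divided by gene length, because introns were counted and the genes differ in size. Whether UMIs rise in proportion to gene length was not tested, so that the order below depends on this step. Per 10 kb of gene, *Cckar* led in deep neuron-like nuclei with a level of 0.356, before *Npy2r* with 0.219 and *Gpr65* with 0.111. *Insr*, which had the highest level of the 10 genes before this step, came after these with 0.0623 once divided by its span of 157.6 kb. *Glp1r* followed with 0.0233, *Oxtr* with 0.0101 and *Lepr* with 0.00596. *Mc4r*, *Gipr* and *Ghsr* gave 10, 8 and 1 UMIs in these nuclei, too few to be placed in this order.

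With both libraries joined, a small nodose-like cluster, cluster 8, had the highest levels of *Cckar*, *Npy2r* and *Glp1r*, although most of their nodose-like UMIs lay in other clusters. Cluster 8 gave 196 of the 551 nodose-like UMIs of *Cckar*, 71 of 294 of *Npy2r* and 50 of 158 of *Glp1r*, against 186, 119 and 19 in cluster 4 and 129, 88 and 44 in cluster 1. Cluster 8 held 91 nuclei, 21 female and 70 male, had the lowest median depth of the 12 clusters, 7409 UMIs, and was led by *Vip*, the vasoactive intestinal peptide gene, *Uts2b*, which encodes a urotensin-like peptide, and *Cartpt*, which encodes the CART peptide.

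*Cckar* stood at 2.04 [1.76 to 2.34] in cluster 8, 2.68 in the female and 1.73 in the male nuclei. Cluster 4, led among others by *C1ql3* and *Col6a5*, came next with 0.900 [0.775 to 1.04], then the mixed cluster 2 with 0.555 [0.478 to 0.640] and cluster 1 with 0.348 [0.291 to 0.414]. These 4 did not overlap in their intervals, whereas that of cluster 10, the next with 0.20 [0.130 to 0.292], just met that of cluster 1. The other 7 clusters lay between 0.0543 and 0.168. By share of nuclei the order was another: 56.8% of the 132 nuclei of cluster 4 held *Cckar*, 75 nuclei in all, against 31.9% of cluster 8, 29 nuclei. After every nucleus was thinned to 5000 UMIs, cluster 4 still gave 32.6% and cluster 8 gave 24.2%. In cluster 8 fewer nuclei thus held more *Cckar* each, up to 43 UMIs in 1 nucleus.

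*Npy2r* had its highest levels in the same pair of clusters, 0.737 [0.576 to 0.93] in cluster 8 and 0.576 [0.477 to 0.689] in cluster 4, whose intervals overlapped. Cluster 8 was first in the female library (1.16 against 0.552) and cluster 4 in the male one (0.587 against 0.536). The mixed cluster 2 followed with 0.431, cluster 1 with 0.237 and the jugular-like cluster 5, led by *Gfra3*, *Tac1* and *Calca*, with 0.125 [0.0821 to 0.181]. Cluster 4 again had the larger share, 42.4% of nuclei against 28.6% in cluster 8. Across the 12 clusters *Npy2r* and *Cckar* had a Pearson correlation of 0.91 on the log2 scale. Among 10860 genes, *Cckar* was the second most like *Npy2r*, after *Gm13582*, and *Npy2r* the third most like *Cckar*, after *Ass1* and *Cavin2*. The clusters share their libraries and their free RNA, so that this is a description.

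With both libraries joined, *Glp1r* peaked in cluster 8 with 0.519 [0.385 to 0.684] and came second in cluster 6, led by *Eya4* and *Slit2*, with 0.209 [0.146 to 0.289]. In the male library clusters 8 and 6 were close, with 0.276 from 18 UMIs and 0.229 from 27. The female library gave 1.03 from 32 UMIs and 0.165 from 9. Clusters 1 and 2 followed with 0.119 [0.0863 to 0.159] and 0.115 [0.0818 to 0.157], whose intervals met that of cluster 6, and cluster 4 with 0.0919 [0.0553 to 0.144], which did not meet it. In the 5 jugular-like clusters it lay between 0.00835 and 0.0346. *Glp1r* and *Npy2r* thus parted in clusters 4 and 6: *Npy2r* was 0.576 in cluster 4 and 0.0581 in cluster 6, *Glp1r* 0.0919 and 0.209. *Hoxb6*, *Inafm1* and *Hoxb5* were the genes most like *Glp1r* over the clusters, with correlations of 0.93, 0.93 and 0.91.

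A single female nucleus weighed on the values of cluster 8. It held 85656 UMIs, and with them 43 of the 196 *Cckar* UMIs and 21 of the 50 *Glp1r* UMIs of the cluster. Without it, *Cckar* stood at 1.74 and *Glp1r* at 0.331 there, each still the highest of the 12 clusters. Both values lay below the intervals given above for cluster 8, and that of *Glp1r* rested on 18 male and 11 female UMIs. In the *Npy2r* values another nucleus was the richest, with 13 of 71 UMIs, and without it the level was 0.631.

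*Gpr65* was spread in part otherwise. Its correlation over the 12 clusters was 0.785 with *Glp1r*, 0.667 with *Cckar* and 0.632 with *Npy2r*, beside 0.645 between *Glp1r* and *Npy2r*. Cluster 8, with 0.270 [0.176 to 0.396], and cluster 1, led by *Gm11234* and including the leukotriene receptor gene *Cysltr2* among its leading genes, with 0.240 [0.193 to 0.296], overlapped. The share of nuclei was 20.9% in cluster 8 and 20.1% in cluster 1. Cluster 4, so rich in *Cckar* and *Npy2r*, had 0.0339 [0.0136 to 0.0698], and the jugular-like clusters 10 and 12 had no *Gpr65* UMI in 84 and 47 nuclei, which allows up to 3 UMIs in each. *Bub3*, *Galc* and *Sumf1* were most like it over the clusters, with correlations of 0.91, 0.90 and 0.90. The gene *Gm47566* lies on the opposite strand within *Gpr65* and had 65 UMIs of its own in the table.

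**Figure D1:**
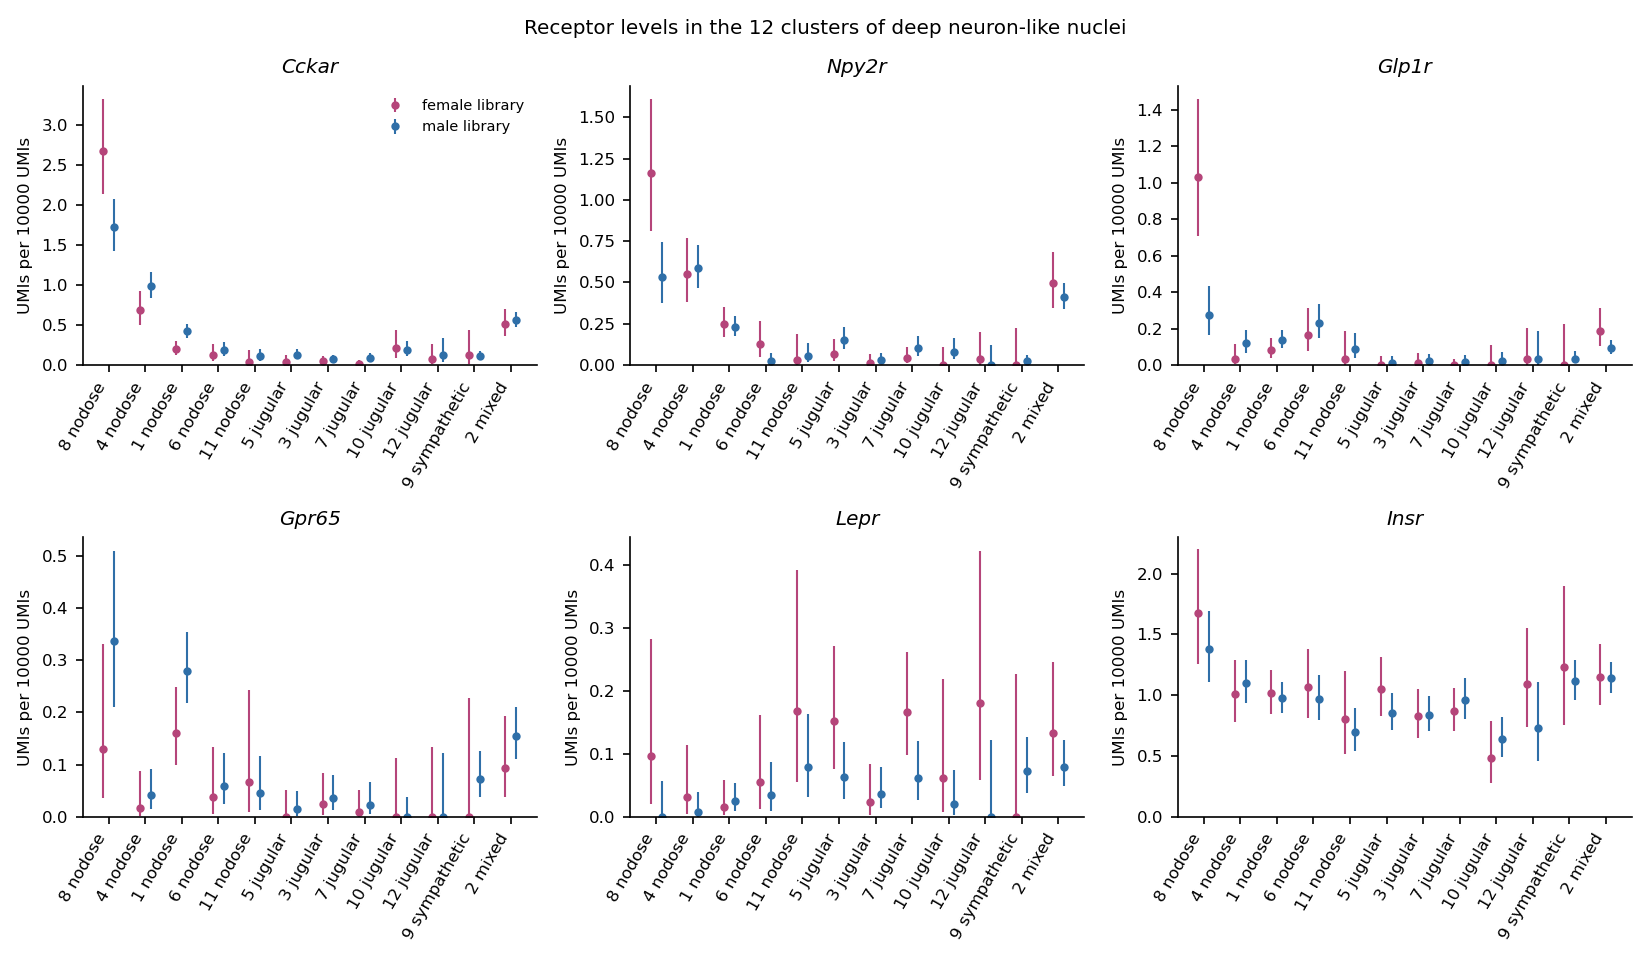
Levels in UMIs per 10000 UMIs (vertical axis, linear, its own range for each gene) of 6 receptor genes in the 12 clusters of deep neuron-like nuclei (horizontal axis, nodose-like clusters first), with 1 point for each library and exact Poisson 95% intervals. With both libraries joined, *Cckar*, *Npy2r* and *Glp1r* are highest in nodose-like cluster 8, *Gpr65* in clusters 8 and 1, and *Insr* stays between 0.599 and 1.47 in all clusters, while for *Npy2r* the male point of cluster 4 (0.587) lies above that of cluster 8 (0.536).

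Single UMIs of these genes were also found in nuclei that should lack them, so that a UMI alone does not mark an expressing nucleus. Over nuclei of any depth, *Cckar* stood at 0.359 in neuron-like nuclei (median depth 7212 UMIs), but also at 0.277 in Schwann cell-like (1905), 0.288 in satellite glia-like (2511) and 0.266 in macrophage-like nuclei (1802). *Npy2r* stood at 0.212, 0.164, 0.109 and 0.124 in these classes. Thinned to 1000 UMIs, 3.74% of neuron-like, 2.98% of Schwann cell-like and 3.31% of macrophage-like nuclei held *Cckar*. The share of *Npy2r* in the sum of *Npy2r* and *Cckar* UMIs was 37.5% in deep neuron-like and 37.2% in Schwann cell-like nuclei, and 27.5% to 38.6% in satellite glia-like, fibroblast-like, endothelial cell-like and macrophage-like nuclei. The pooled share of neurons with a UMI therefore stood little above that of Schwann cells.

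Among deep nuclei thinned to 5000 UMIs the picture was alike. *Cckar* was then seen in 12% of neuron-like and 8.14% of the 86 Schwann cell-like nuclei (median 7033.5 UMIs before thinning), *Npy2r* in 7.91% and 3.49%, *Gpr65* in 4.17% and 1.16%, and *Glp1r* in 3.29% and 3.49%. In the 121 deep satellite glia-like nuclei the shares were 13.2%, 7.44%, 6.61% and 1.65%. Their median before thinning was 7081 UMIs, against 13309.5 in deep neuron-like nuclei. Whether free RNA weighs differently in nuclei of such unlike depth was not tested. Over all neuron-like nuclei, *Cckar* and *Gpr65* were not above the satellite glia-like share. Set against this class alone, these 2 shares cannot be told from background. *Npy2r* was above both glial shares, though little above the satellite glia-like one. *Glp1r* lay between them, and with 3.49% [0.725 to 9.86] and 1.65% [0.201 to 5.84], from 3 and 2 nuclei, the glial shares were too uncertain to tell whether it was above background. For *Cckar*, *Npy2r*, *Gpr65* and *Glp1r*, the nodose-like nuclei alone gave 16.7%, 11.3%, 6.04% and 5.09%, of which that of *Gpr65* was again below satellite glia-like nuclei, and the jugular-like nuclei gave 5.34%, 2.46%, 1.44% and 0.616%. All 4 jugular-like shares were below those of satellite glia-like nuclei and cannot be told from background either. Before thinning, jugular-like nuclei had a median of 14159 UMIs and nodose-like ones 12558, closer in depth to each other than to satellite glia-like nuclei.

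Nuclei with several UMIs of a receptor were found mainly among nodose-like and mixed nuclei. At least 5 *Cckar* UMIs were found in 40 deep neuron-like nuclei, of which 31 were nodose-like, 9 mixed and 0 jugular-like, and in 0 of 377 deep nuclei of glia and stroma (median 6646 UMIs). For *Npy2r* 23 deep neuron-like nuclei held at least 5, of which 14 were nodose-like, 8 mixed and 1 jugular-like, against 1 of glia and stroma. For *Glp1r* the count was 7, with 6 nodose-like and 1 mixed, and for *Gpr65* it was 5, with 3 nodose-like, 1 mixed and 1 sympathetic neuron-like. Per nucleus the mixed cluster was not behind, with at least 5 *Cckar* UMIs in 5.63% of its 160 nuclei against 4.93% of the 629 nodose-like nuclei, and at least 5 *Npy2r* UMIs in 5% against 2.23%. The 31 nodose-like nuclei with at least 5 *Cckar* UMIs held 311 of their 551 *Cckar* UMIs. The mixed cluster, which also carried glial transcripts, held a UMI of *Cckar* in 43.1% of its nuclei and of *Npy2r* in 38.8%, above the nodose-like shares of 28.9% and 21.9%. Whether droplets with more than 1 nucleus or free RNA add to this was not tested.

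**Figure D2:**
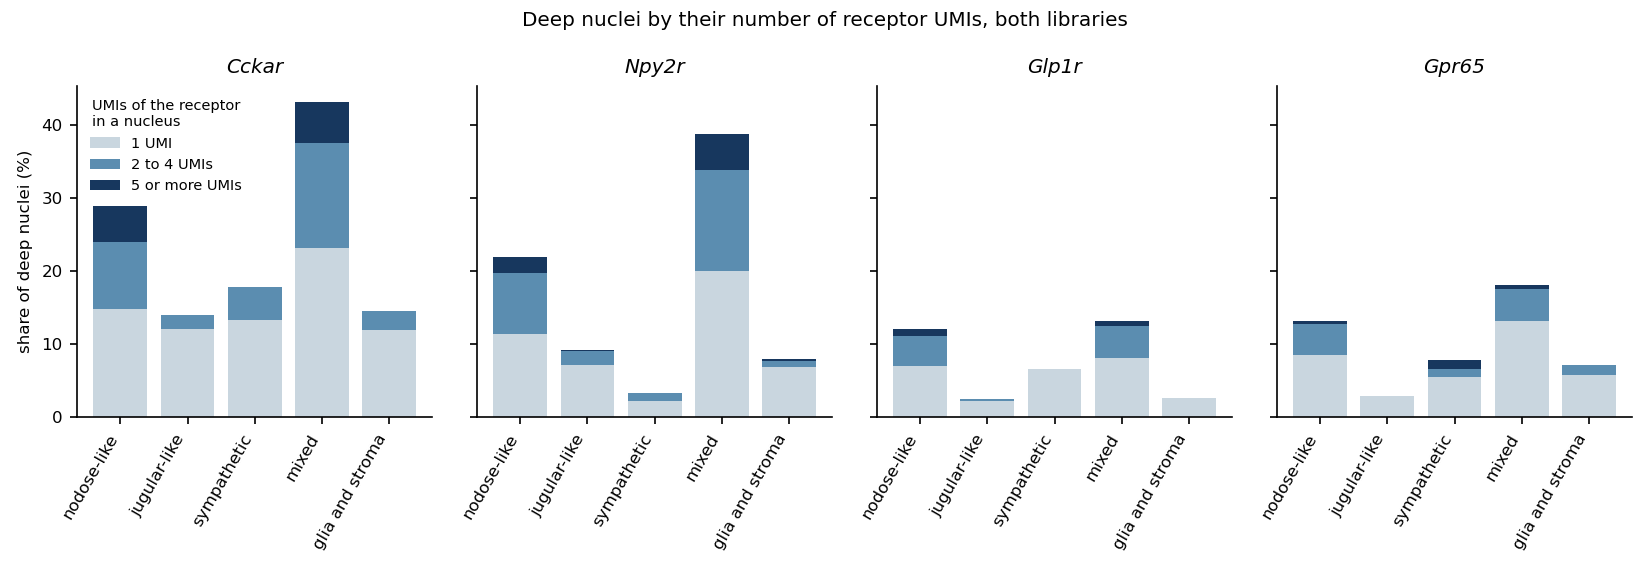
Share of deep nuclei in percent (vertical axis) that held 1, 2 to 4, or 5 or more UMIs of each of 4 receptor genes, stacked, in 5 sets of nuclei (horizontal axis), both libraries joined. Nuclei with 1 UMI are found in every set, while nuclei with at least 5 *Cckar* UMIs are nodose-like (31) or mixed (9).

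The design allows the nodose-like and the jugular-like neurons of each library to be compared, which asks in which of the 2 ganglia a receptor belongs. A gene counted as different past 2-fold, with at least 20 UMIs over both sets, and 7 of the 10 receptors had these. Higher in nodose-like nuclei were 5 of the 7, *Glp1r*, *Gpr65*, *Cckar*, *Npy2r* and *Oxtr*, against 8.12% of all 16492 genes measured, and lower was 1 of the 7, *Lepr*, against 7.44%. *Insr* was within 2-fold. The median log2 ratio was 2.15 over the 7 receptors and 0.01 over all genes.

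With both libraries joined *Glp1r* had the largest ratio. Its level was 0.178 in nodose-like and 0.00612 in jugular-like female nuclei, and 0.157 and 0.0194 in male ones, a log2 ratio of 3.45 [2.68 to 4.44] or 10.9-fold over both libraries. *Gpr65* stood at 0.0958 against 0.00918 in female and 0.163 against 0.0194 in male nuclei, a log2 ratio of 3.14 [2.39 to 4.09]. *Cckar* stood at 0.528 against 0.0551 and at 0.591 against 0.113, a log2 ratio of 2.63 [2.30 to 2.99]. All 3 were higher in the nodose-like nuclei of both libraries, with intervals clear of 0. Their order was not firm. In the male library *Gpr65* (3.02) and *Glp1r* (2.96) were close, and the female *Glp1r* ratio of 4.56 [2.94 to 7.95] rested on 2 jugular-like UMIs and on a nucleus with 21 of the 54 nodose-like UMIs.

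*Npy2r* was 0.363 against 0.0367 in female and 0.278 against 0.0863 in male nuclei, a log2 ratio of 2.15 [1.76 to 2.58] in all, 3.25 [2.44 to 4.30] in the female and 1.68 [1.23 to 2.17] in the male library. These 2 intervals did not overlap, but the jugular-like levels came from 12 female and 49 male UMIs, and the jugular-like share could not be told from background above. The ratios therefore do not measure whether the step between the ganglia differed between the libraries. *Oxtr* rested on few molecules, 20 UMIs in nodose-like and 5 in jugular-like nuclei, with a log2 ratio of 1.79 [0.44 to 3.66], and in the female library alone the interval reached below 0 (1.49 [-0.79 to 5.04]). *Lepr* went the other way with 0.0342 in nodose-like and 0.0704 in jugular-like nuclei, a log2 ratio of -1.03 [-1.69 to -0.41]. The female library gave -1.20 [-2.20 to -0.33] and the male one -0.68 [-1.65 to 0.24], short of 2-fold. With stricter markers for the neuron kinds *Lepr* gave -0.34, so that its call was lost. Whether free RNA added to the *Lepr* UMIs of either kind was not tested. *Insr* differed by 0.27 [0.14 to 0.41].

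**Figure D3:**
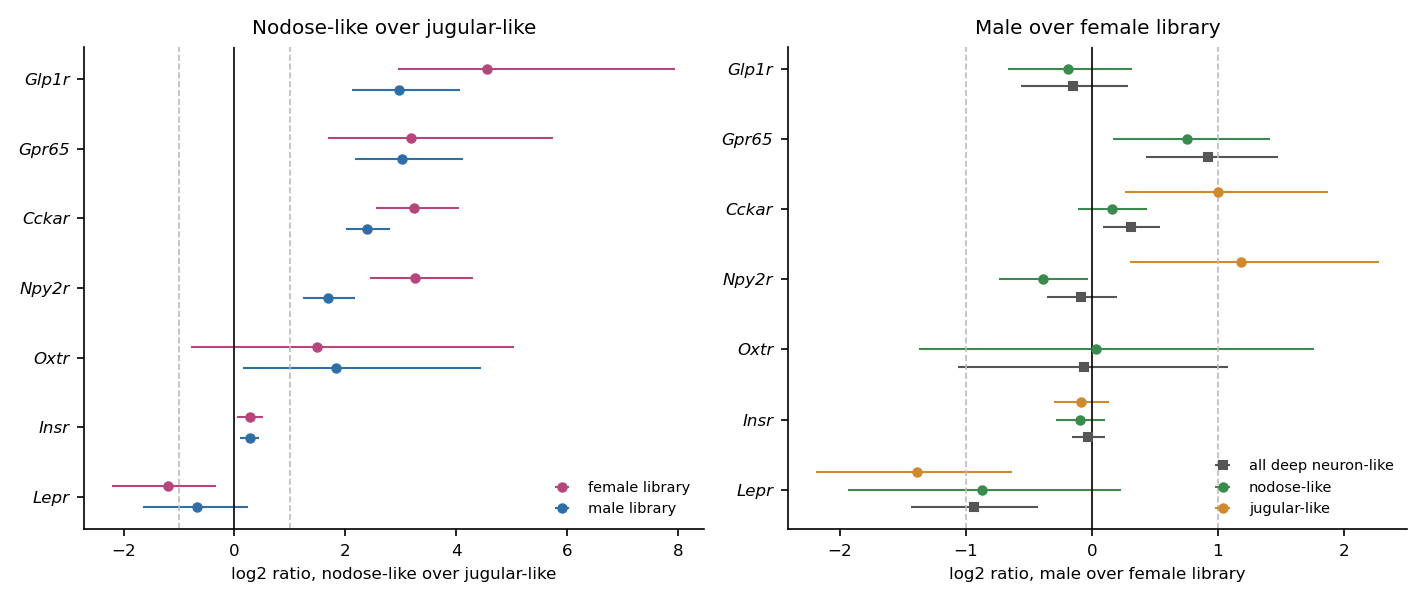
Log2 ratios (horizontal axes) of 7 receptor genes with exact conditional 95% intervals, on the left nodose-like over jugular-like nuclei in each library, on the right male over female library in all deep neuron-like, nodose-like and jugular-like nuclei, where at least 20 UMIs were counted. Solid lines mark 0 and dashed lines 2-fold. *Glp1r*, *Gpr65*, *Cckar* and *Npy2r* lie right of 2-fold on the left panel in both libraries, and *Lepr* lies left of 0.

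Within the nodose-like neurons, each of *Cckar*, *Npy2r* and *Glp1r* was seen more often in nuclei that held another of the 3. *Cckar* was seen in 55.1% [46.4 to 63.5] of the 138 nuclei with *Npy2r* and in 21.6% [18.0 to 25.5] of the 491 without. It was seen in 50% [38.3 to 61.7] of the 76 nuclei with *Glp1r* and in 26.0% [22.4 to 29.9] of those without, and *Npy2r* in 47.4% [35.8 to 59.2] and 18.4% [15.3 to 21.9]. Nuclei with *Npy2r* had a median depth of 14865.5 UMIs against 11830 without, and those with *Glp1r* 17761.5 against 12001, so that shares were compared at equal depth as well. Thinned to 5000 UMIs, *Cckar* was seen in 45.1% of nuclei with *Npy2r* and 13.1% without, and in 50% of the 32 nuclei with *Glp1r* and 14.9% without. These shares pool nodose-like clusters that differ in how often they hold *Cckar*, *Npy2r* and *Glp1r*. Whether the 3 genes also go together within a cluster was not tested.

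For *Gpr65* the shares did not part clearly in nodose-like nuclei. *Cckar* was seen in 24.1% [15.4 to 34.7] of the 83 nodose-like nuclei with *Gpr65* and in 29.7% [25.9 to 33.7] of those without, *Npy2r* in 15.7% and 22.9%, and *Glp1r* in 8.43% and 12.6%. The intervals of each pair overlapped, and at this depth a difference could not be told in either direction. For *Lepr*, with 26 nodose-like nuclei, *Cckar* was seen in 30.8% [14.3 to 51.8] and 28.9% [25.3 to 32.7].

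**Figure D4:**
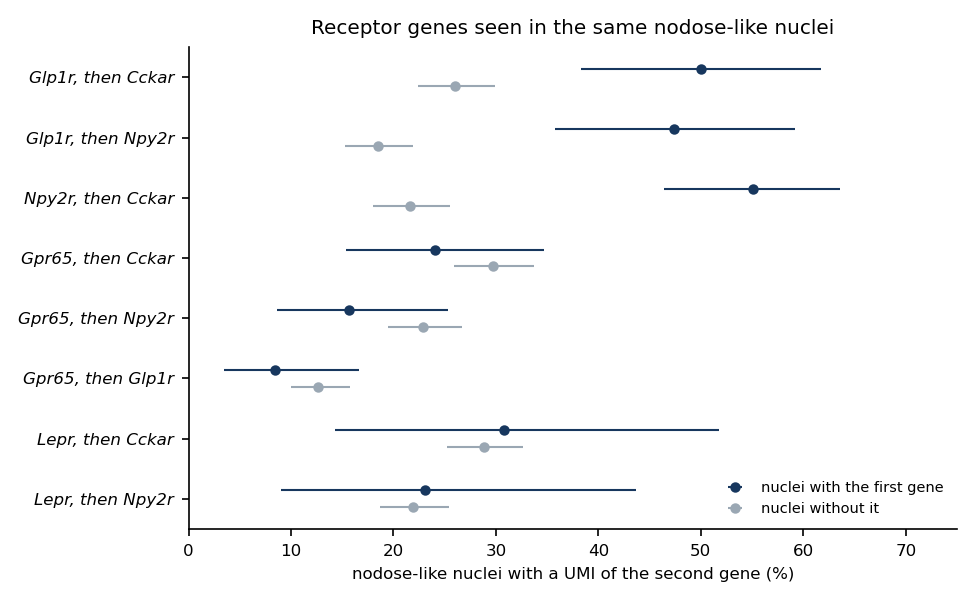
Share of deep nodose-like nuclei in percent (horizontal axis) with a UMI of the second gene of each pair (vertical axis), among nuclei with and without a UMI of the first gene, both libraries joined, with Clopper-Pearson 95% intervals and no thinning. The intervals part for the 3 pairs of *Glp1r*, *Npy2r* and *Cckar* and overlap for the 5 pairs with *Gpr65* or *Lepr*.

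Of the receptors *Glp1r*, *Npy2r*, *Cckar*, *Gpr65* and *Lepr*, the nodose-like nuclei held none in 283, 1 in 233, 2 in 72, 3 in 36 and 4 in 5 nuclei. The jugular-like nuclei held none in 344, 1 in 107, 2 in 35 and 3 in 1 nucleus. No nucleus held all 5.

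The genes with the highest ratio in nuclei with a UMI of a receptor over nuclei without are named next. They were chosen by that ratio among genes with at least 30 UMIs in the former, so that high ratios follow from the choice. In deep neuron-like nuclei with *Glp1r*, *Vip* stood at 2.32 against 0.199 in nuclei without, 11.7-fold, *Uts2b* at 1.72 against 0.159, and *Myl1* at 1.498 against 0.182. *Vip* was seen in 44 of the 115 nuclei with *Glp1r*. *Vip* also led the nuclei with *Npy2r*, 8.35-fold, and came second in those with *Cckar*, 6.09-fold, after *Upp1*. These sets share nuclei, 122 of them with both *Npy2r* and *Cckar*, so that a gene found in several lists is not a separate observation. *Vip* was higher in both libraries but unevenly, with log2 ratios for *Glp1r* of 4.87 in the female and 2.54 in the male nuclei, whereas *Myl1* gave 3.06 and 3.04. Restricted to nodose-like nuclei, the interleukin-6 family receptor gene *Osmr* led for *Glp1r* (0.493 against 0.0360) and for *Npy2r* (0.318 against 0.0341). The channel gene *Trpc6* came second for *Glp1r*, 1.41 against 0.107. Deep neuron-like nuclei with *Gpr65* were led by *Gm11234* at 0.660 against 0.0551 and *Mgarp* at 0.309 against 0.0364. The neurotensin receptor gene *Ntsr1* stood at 0.204 against 0.0302. *Gm11234* was seen in 19 and *Mgarp* in 14 of the 133 nuclei with *Gpr65*. The log2 ratio of *Gm11234* was 6.5 for female and 2.3 for male nuclei. None of the 5 leading genes was shared between *Gpr65* and the other 3. How often lists this short share no gene was not tested, so that no separate set is read from this.

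The remaining peptide receptors were near the limit of detection. *Oxtr*, on chromosome 6 at 112473683-112489943 (minus strand), gave 12 UMIs among female and 27 among male deep neuron-like nuclei, levels of 0.0166 and 0.0163. Its highest levels were in cluster 4, 0.0532 [0.0266 to 0.0952] from 11 UMIs, and in the mixed cluster 2, 0.0413 from 14. It was seen in 2.64% of deep neuron-like nuclei, but thinned to 5000 UMIs in 0.512% [0.206 to 1.05]. Thinned alike, it was seen in 3.49% [0.725 to 9.86] of 86 deep Schwann cell-like and 0% of 121 deep satellite glia-like nuclei. All 377 deep nuclei of glia and stroma gave 0.796% [0.164 to 2.31]. This interval overlapped that of neuron-like nuclei, so that the *Oxtr* share cannot be told from background.

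*Mc4r*, on chromosome 18 at 66857704-66860506 (minus strand), gave 10 UMIs in deep neuron-like nuclei, 2 female and 8 male, each in another nucleus, 5 of them in the mixed cluster. In the other 606 deep nuclei it gave 0 UMIs. Over nuclei of any depth *Mc4r* gave 16 UMIs, 10 of them in neuron-like and 3 in satellite glia-like nuclei. Schwann cell-like, barrier fibroblast-like and endothelial cell-like nuclei gave 1 each. *Gipr*, on chromosome 7 at 19156061-19166127 (minus strand), gave 4 UMIs in each library, and outside neurons 5 UMIs in barrier fibroblast-like nuclei. *Ghsr*, on chromosome 3 at 27371351-27378010 (plus strand), gave 1 UMI in deep neuron-like nuclei and 4 in all 8714 nuclei. These 3 genes had too few UMIs for a comparison, which says only that they were not measurable at this depth.

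*Lepr* and *Insr* had their highest levels in cells other than neurons. *Lepr*, on chromosome 4 at 101717404-101815352 (plus strand), stood in nuclei of any depth at 3.15 [2.76 to 3.58] in the female and 2.71 [2.38 to 3.07] in the male barrier fibroblast-like nuclei, and 49.9% of these 501 nuclei held it. Fibroblast-like nuclei followed with 1.81 [1.57 to 2.07] and 0.853 [0.675 to 1.06], endothelial cell-like nuclei with 0.493 and 0.650, and adipocyte-like nuclei with 0.452 and 0.326. Most female and most male fibroblast-like nuclei lay in different clusters. Neuron-like nuclei had 0.0891 and 0.0485, below every other named class in both libraries but for the 24 male cerebellar granule cell-like nuclei, which had 0 UMIs. Among neuron clusters *Lepr* was highest in the jugular-like cluster 7 with 0.109 [0.0709 to 0.159], the nodose-like cluster 11 with 0.101 [0.0524 to 0.177] and the jugular-like cluster 5 with 0.0923 [0.0564 to 0.143], which overlapped, and lowest in the *Cckar*-rich cluster 4 with 0.0145. Deep neuron-like nuclei with *Lepr* were led by *Atp13a5*, 8.49-fold, and *Ranbp3l*, 5.78-fold, over nuclei without. Both were also leading genes of the barrier fibroblast-like nuclei. In nodose-like nuclei alone, *Lcp1* and *Chst9* led instead. Whether the *Lepr* UMIs of neuron-like nuclei were free RNA was not tested, so that this order may not be the neurons' own.

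*Insr*, on chromosome 8 at 3122061-3279617 (minus strand), was the most widely seen, in 64.9% of deep neuron-like nuclei. Over nuclei of any depth, neuron-like nuclei held 813 of its 2723 UMIs in the female and 1787 of 3365 in the male library. By level per UMI, other classes stood higher. It was highest in endothelial cell-like nuclei, 3.44 [2.98 to 3.95] in the female and 5.17 [4.61 to 5.77] in the male library, and in adipocyte-like nuclei, 4.23 [3.67 to 4.85] and 4.50 [3.50 to 5.69]. The other named classes, cerebellar granule cell-like nuclei among them, lay between 1.46 and 1.72 over both libraries and neuron-like nuclei at 0.988 [0.950 to 1.03]. Among the neuron clusters it ranged from 0.599 [0.473 to 0.747] in cluster 10 to 1.47 [1.24 to 1.74] in cluster 8.

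**Figure D5:**
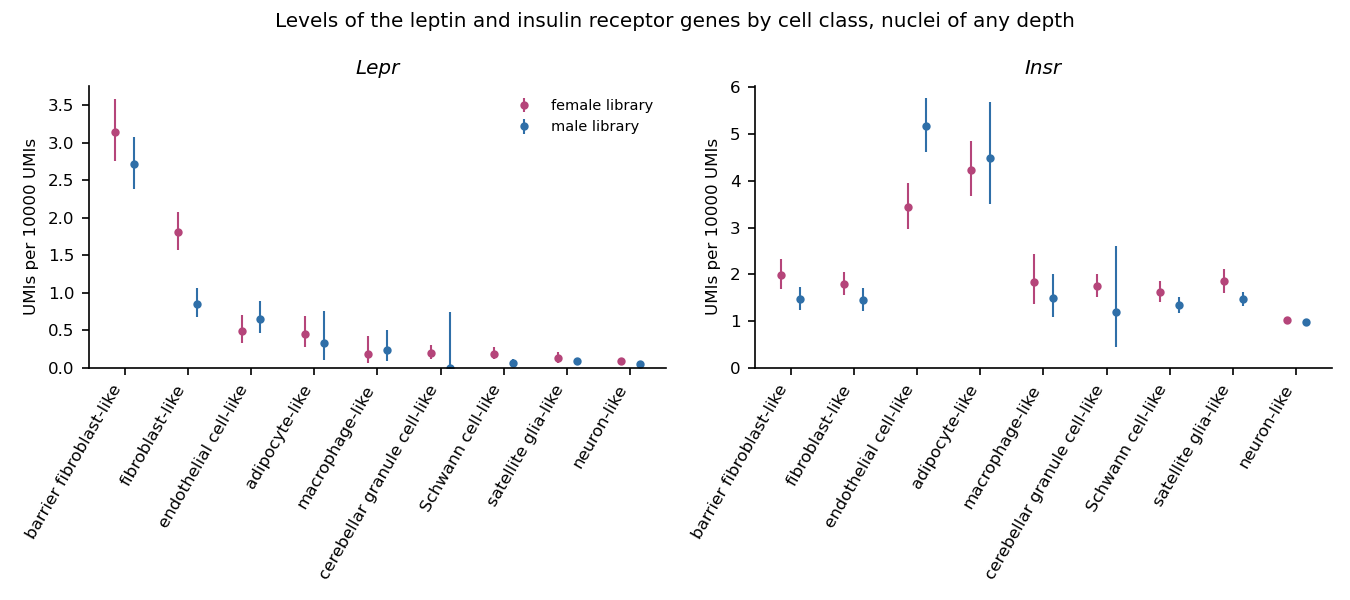
Levels of *Lepr* (left) and *Insr* (right) in UMIs per 10000 UMIs (vertical axes, linear) in 9 cell classes, nuclei of any depth, with 1 point for each library and exact Poisson 95% intervals. *Lepr* is highest in barrier fibroblast-like nuclei (2.91 over both libraries) and *Insr* in endothelial cell-like (4.32) and adipocyte-like nuclei (4.30).

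The other 606 deep nuclei were 377 of glia and stroma, 41 cerebellar granule cell-like nuclei and 188 of unnamed clusters. Of the 188, 126 lay in a cluster for which the pituitary markers scored highest, with *Pou1f1* and *Pomc* among its leading genes. Compared with all 606 nuclei, none of the 7 receptors with enough UMIs was past 2-fold higher in neuron-like nuclei, against 12.8% of 18174 genes, and 2 were lower, *Lepr* and *Insr*, against 18.9%. *Glp1r* came closest to 2-fold with a log2 ratio of 0.98 [0.40 to 1.68], before *Cckar* with 0.93 [0.64 to 1.26] and *Npy2r* with 0.74 [0.38 to 1.14]. *Gpr65* had 0.22 [-0.26 to 0.76], and it was also found in macrophage-like nuclei, at 0.283 [0.162 to 0.460] from 16 UMIs. *Lepr* had -3.39 [-3.69 to -3.11], a level 10.5-fold higher in the other deep nuclei, and *Insr* -1.08 [-1.18 to -0.97]. These are levels per UMI, and the median depth was 13309.5 UMIs in neuron-like and 6880.5 in the other deep nuclei. Against the 377 nuclei of glia and stroma alone, *Glp1r* was past 2-fold with a log2 ratio of 1.49 [0.65 to 2.63], from 10 UMIs in the latter, so that the count of 0 depends on the nuclei compared with. In the same comparison *Npy2r* gave 0.87 [0.41 to 1.41], *Cckar* 0.76 [0.41 to 1.15] and *Gpr65* -0.18 [-0.70 to 0.43]. Over all other deep nuclei, the median log2 ratio was 0.24 over the 7 receptors and -0.18 over all genes.

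Between the libraries, none of the 7 receptors was past 2-fold in deep neuron-like nuclei, against 2.37% of 17247 genes higher and 1.32% lower in the male library. *Gpr65* was 1.90-fold higher in the male library (log2 0.92 [0.43 to 1.48]) and *Lepr* 1.91-fold lower (log2 -0.93 [-1.43 to -0.43]). In jugular-like nuclei alone *Lepr* was past 2-fold, with -1.39 [-2.19 to -0.63] from 25 male and 38 female UMIs. In nodose-like nuclei *Lepr* gave -0.87 [-1.93 to 0.23], from 18 and 15. That none was past 2-fold therefore holds for all deep neuron-like nuclei and not for each kind. *Gpr65* and *Lepr* had the same sign in some classes outside neurons. For *Gpr65* the log2 ratio was 2.08 [0.71 to 4.20] for Schwann cell-like nuclei, and fibroblast-like ones gave 1.45 [0.31 to 2.80]. For *Lepr* these 2 classes gave -1.39 [-2.51 to -0.38] and -1.08 [-1.48 to -0.70]. Whether free RNA carried these differences into the neurons was not tested. The libraries also lay largely in different clusters of these 2 classes. The Schwann cell-like clusters held 527 female and 177 male nuclei, and 19 and 526. The fibroblast-like clusters held 521 and 54, and 21 and 429. For *Lepr*, barrier fibroblast-like nuclei gave -0.22 [-0.48 to 0.05] and endothelial cell-like nuclei 0.39 [-0.33 to 1.14].

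*Cckar* was higher in the male library by 0.31 [0.09 to 0.54] and *Glp1r* had -0.15 [-0.56 to 0.29]. Without the single female nucleus of 85656 UMIs these were 0.61 and 0.35, so that the sign of the *Glp1r* value rests on 1 nucleus. In cluster 8 alone, the male library was lower in *Glp1r* by a log2 ratio of -1.89 [-2.83 to -1.03], and without the richest nucleus by -0.86 [-1.99 to 0.40]. *Npy2r* gave -0.08 [-0.36 to 0.20] over all of these nuclei, but -0.39 [-0.73 to -0.03] in nodose-like and 1.19 [0.30 to 2.28] in jugular-like nuclei, the latter from 49 male and 12 female UMIs. The nodose-like value without its richest nucleus was -0.23 [-0.59 to 0.15]. *Cckar* in jugular-like nuclei gave 1.01 [0.26 to 1.88], beside 0.85 [0.25 to 1.46] in deep nuclei that were not neuron-like. *Insr* gave -0.03 [-0.15 to 0.10] in deep neuron-like nuclei and 0.59 [0.33 to 0.85] in endothelial cell-like nuclei. With 1 library per sex these values compare 2 libraries.

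Few UMIs of the receptors' ligands were found in the neurons. Of 12 ligand genes, *Gcg*, *Ppy*, *Oxt* and *Lep* gave 0 UMIs in deep neuron-like nuclei, which allows up to 0.00126 per 10000, and *Pyy*, *Cck* and *Ins2* gave 1 each. *Npy*, a ligand of *Npy2r*, stood at 0.247 in deep neuron-like nuclei and at 0.179 in the other deep nuclei. Of its 588 UMIs in the former, 57 lay in nodose-like (0.0591) and 47 in jugular-like nuclei (0.0525). The others lay in sympathetic neuron-like and mixed nuclei, and *Npy* was among the markers that named the sympathetic neuron-like cluster. *Agrp*, whose peptide blocks *Mc4r*, was an exception with 1609 UMIs, 0.676 [0.643 to 0.710], in 55.7% of deep neuron-like nuclei. It stood at 0.712 in nodose-like and 0.638 in jugular-like nuclei. The other deep nuclei also held it, at 0.380, a log2 ratio of 0.83 [0.62 to 1.05], within 2-fold. Of the 12, only 3 had enough UMIs for the comparison of nodose-like with jugular-like nuclei, with 0 higher and 1, *Pomc*, lower.

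Related receptors parted between the ganglia. Of 26 in the table, 13 had enough UMIs, and 4 were higher and 5 lower in nodose-like nuclei, against 8.12% and 7.44% of all genes measured, with a median log2 ratio of 0.50. Higher were the secretin receptor gene *Sctr* (log2 4.50 [3.26 to 6.56]), the cholecystokinin B receptor gene *Cckbr* (2.59 [1.52 to 4.06]), the vasopressin receptor gene *Avpr1a* (1.99) and the glucagon-like peptide 2 receptor gene *Glp2r* (1.77). Among the lower were the Y1 receptor gene *Npy1r* (-2.90 [-3.71 to -2.24]), the galanin receptor gene *Galr1* (-2.73), the insulin receptor-related gene *Insrr* (-2.38) and the calcium-sensing receptor gene *Casr* (-2.22). The Y1 and Y2 receptor genes thus stood on opposite sides.

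Of 23 accessory and downstream genes 20 had enough UMIs, with 3 higher and 2 lower in nodose-like nuclei and a median of 0.02, counts near the 8.12% and 7.44% of all genes measured. *Mrap2*, an accessory protein of melanocortin and ghrelin receptors, was higher (1.55 [1.17 to 1.94]), as were *Ramp1* (1.67 [0.62 to 2.97]) and *Gnas*, the stimulatory G protein through which *Glp1r* and *Gpr65* signal (1.15 [1.11 to 1.20], 15.1 against 6.80). *Socs3*, which restrains leptin signalling, and *Pik3r1*, a subunit of the kinase downstream of the insulin receptor, were lower (-1.20 and -1.46). Against the other deep nuclei, *Irs1*, a substrate of the insulin receptor, was lower in neuron-like nuclei (-2.74 [-2.93 to -2.55]), and *Jak2* (-0.26) and *Stat3* (0.17) were within 2-fold. Between the libraries 0 of 20 of these genes were past 2-fold, a count near the 2.37% and 1.32% of all genes measured. Of 16 related receptors 2 were higher in the male library, *Adcyap1r1* (1.35 [0.81 to 1.96]) and *Npy4r* (1.20 [-0.39 to 3.79]), and 0 lower. Of the 215 *Adcyap1r1* UMIs only 20 lay in nodose-like and 13 in jugular-like nuclei. The others lay in sympathetic neuron-like and mixed nuclei, of which 85 of 90 and 130 of 160 were male. Whether its ratio reflects this uneven make-up of the libraries was not tested. Of 4 ligands 2 were higher, *Pomc* (2.31 [1.29 to 3.76]) and *Ghrl* (1.12 [-0.49 to 3.71]), and 0 lower.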

How the data were processed

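The table the authors deposited holds UMI counts, made with Cell Ranger (matrix header 7.1.0) on mm10, to which a transgene sequence of the virus was added, with introns included, kept barcodes by DIEM, gene and UMI limits, then merged both libraries by cellranger aggr, which subsamples the deeper one to equal mapped reads. Which gene annotation was used for counting is not stated. Coordinates come from GENCODE on GRCm38 (mm10). The sex of a library was read from its barcode count, which matched the one stated for females or for males, and 8 barcode sequences occurred in both. The study states that doublets were removed, and none were removed further.

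Here, cell classes came from Louvain clustering of all nuclei (10 principal components of 23473 genes, 243 neighbours, resolution 3.4, 20 clusters) and neuron kinds from the deep neuron-like nuclei (20 components of 21701 genes, 15 neighbours, resolution 1, 12 clusters). The 10 receptors and 115 genes that differ between the sexes were left out of both. A class needed 3 markers at 1.5-fold. The limit of 1-fold for neuron kinds, and the rule that 2 further lists leave a cluster without a name, were chosen with the clusters in view. *Prrxl1* stood for *Drgx*, and *Mlnr* was not analysed here. Some listed genes and a searched motif are not reported here.

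For a ratio 0.5 UMIs were added to each sum, and genes under 20 UMIs in total were left out. Calls are past 2-fold, without a test. A count of 0 allows up to 3 UMIs. Shares were also thinned to 5000 UMIs, or to 1000 with 19 nuclei left out. The genes named beside the receptors are the listed ligands, related receptors, accessory genes and markers, the leading genes of clusters, the 5 genes highest in nuclei with a receptor (at least 30 UMIs there), and the 3 with the highest correlation over clusters of log2(level + 0.05), at least 200 UMIs. The ratios were tested on simulated data. The receptors, lists and alternatives were chosen with earlier results of these data known. Tools were python 3.11.15, numpy 2.4.6, scipy 1.17.1, pandas 2.3.3, scikit-learn 1.9.0 and igraph 0.11.9.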

Additional observations from a re-analysis of the deposited data

How the results depend on the processing

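Over the alternatives, the number of receptors past 2-fold between nodose-like and jugular-like nuclei stayed between 4 (male library alone) and 6, the latter as reported, and no ratio past 2-fold changed its direction. Of those within 2-fold, male over female, *Glp1r* went from -0.15 to 0.35 without the nucleus richest in *Cckar* and to 0.03 when every nucleus counted the same, and *Cckar* from 0.31 to -0.01 with clusters counting the same. The number past 2-fold higher in neuron-like than in other deep nuclei was 0 as reported, 2 when every nucleus counted the same, and 1 with the receptors kept in the clustering, in the female or the male library alone, with nodose-like and jugular-like nuclei only, or against glia and stroma only. The number past 2-fold between the libraries was 0 as reported and 1 at a depth limit of 2000 or 10000 UMIs, with clusters counting the same, without the mixed cluster, or with nodose-like and jugular-like nuclei only. The number of receptors in at least 5% of deep neuron-like nuclei was 6, and 3 after thinning to 5000 UMIs or when at least 2 UMIs were asked for. Of the ratios of single receptors, 7 left their interval and 69 did not for neuron-like over other nuclei, 7 and 68 for nodose-like over jugular-like, and 3 and 60 for male over female. The settings without the mixed cluster, with nodose-like and jugular-like nuclei only, with a marker limit of 1.5-fold for neuron kinds, against glia and stroma only and without the nucleus richest in *Cckar* were chosen after seeing the data. At that marker limit 5 receptors were past 2-fold between the ganglia, *Lepr* stood at -0.34 and *Gpr65* at 2.22, and the cause was not tested. No paired analysis was possible because each sex has 1 library, and replicate numbers are names only. *Oxtr*, *Mc4r*, *Gipr* and *Ghsr* gave 39, 10, 8 and 1 UMIs in deep neuron-like nuclei, where low expression and low depth cannot be told apart.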
